A study of Glycine max with 4 samples.

Results

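Glyma.01G113000 and Glyma.03G078300 are soybean genes whose deposited description is sulfoquinovosyldiacylglycerol 2 (SQD2), the enzyme that completes the sulfolipid of chloroplast membranes. They are 2 of the 39505 loci in the deposited expression table, taken by name with 1 row for each, and were picked because both stood higher after phosphate (Pi) deprivation. Their difference between treatments is therefore described here and not tested. A further locus, Glyma.18G197600, carries the same description and was not among the genes picked, and it is given beside them as a comparison without a test.

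Leaf RNA was compared between Pi-sufficient leaves (PSL, 500 uM KH2PO4) and Pi-deprived leaves (PDL, 0 uM KH2PO4), with 2 libraries in each group. All plants were of the cultivar Williams 82, had been grown for 18 days with Pi, and stayed for a further 24 h in the solution of their group. Each library came from the first trifoliate leaves of 3 plants, so a library averages plants, and n = 2 in each group. K2SO4 took the place of KH2PO4 in the Pi-deprived solution, so more sulfate was supplied where Pi was absent, and the effects of Pi and of sulfate cannot be told apart, which bears on genes of a sulfur-containing lipid. Values are the authors' FPKM, fragment counts scaled by transcript length and by library depth, which allow levels of different genes to be set side by side.

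Sulfolipid, or sulfoquinovosyldiacylglycerol, is an anionic lipid of thylakoid membranes that carries a sulfonated sugar in place of a phosphate group. In Arabidopsis it is made in the chloroplast in a short chain of steps. UGP3 provides UDP-glucose inside the plastid, SQD1 joins it with sulfite to give UDP-sulfoquinovose, and SQD2 moves the sulfoquinovose onto diacylglycerol. When Pi runs short, plants make more sulfolipid, which can stand in for the phospholipid phosphatidylglycerol.

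Glyma.01G113000 is the abundant paralog, at 38674616 to 38680047 on chromosome 1 (assembly Gmax2.0). With sufficient Pi it stood at 15.3 FPKM in PSL-1 and at 15.3 in PSL-2, and without Pi at 47.5 in PDL-1 and 34.0 in PDL-2. Both PDL libraries lay above both PSL libraries, and the PSL values were nearly equal while the PDL values lay further apart. The means were 40.8 ± 9.49 FPKM in PDL and 15.3 ± 0.0105 in PSL (SD, n = 2), a ratio of 2.66, with 2.22 for the nearest libraries of the groups and 3.10 for the most distant. On log2(FPKM + 0.1) the difference of PDL from PSL was 1.39. The level was above that of 88.4% and 84.7% of the 32686 loci tested in PDL-1 and PDL-2, and above that of 71.5% and 70.7% in PSL-1 and PSL-2.

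Glyma.03G078300 is the rare paralog, at 19629059 to 19634356 on chromosome 3. With sufficient Pi it stood at 0.125 FPKM in PSL-1 and at 0.0531 in PSL-2, and without Pi at 2.00 in PDL-1 and 1.12 in PDL-2. The groups did not overlap here either, and on log2(FPKM + 0.1) the PDL libraries differed by 0.78 and the PSL libraries by 0.55. The means were 1.56 ± 0.623 FPKM in PDL and 0.0889 ± 0.0506 in PSL (SD, n = 2), a ratio of 17.6, with 9.0 for the nearest libraries of the groups and 37.7 for the most distant. On log2(FPKM + 0.1) the difference was 3.11. Across all loci tested, 20.2% had both PDL libraries above both PSL libraries and 21.1% had both below, and since both paralogs were picked on this contrast nothing is read from their place among them.

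**Figure D1:**
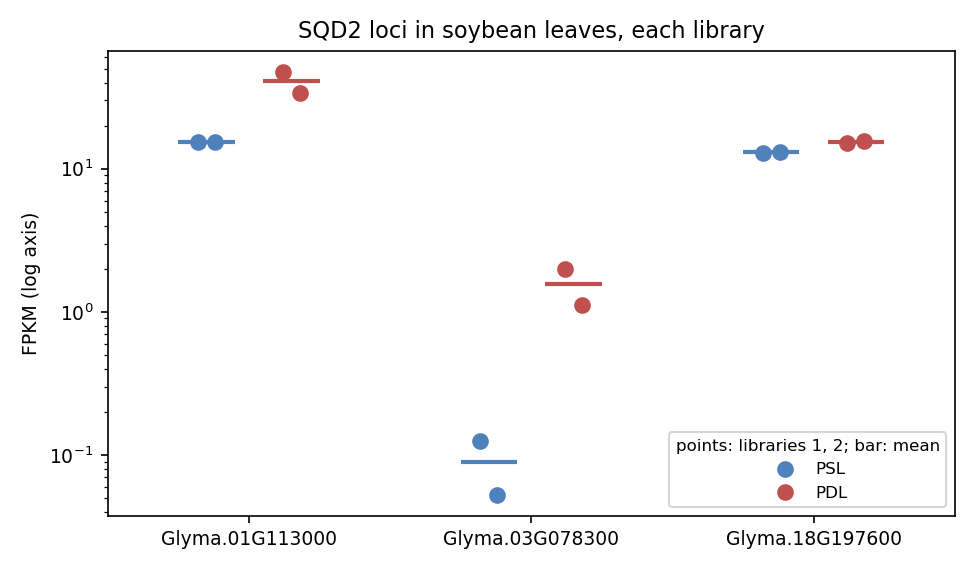
FPKM (log axis) of the 3 SQD2 loci in each library, with PSL in blue and PDL in red, a point for each library and a bar at the mean of a group. Glyma.01G113000 sits at 15.3 in PSL and at 34.0 and 47.5 in PDL, Glyma.03G078300 spans 0.0531 to 2.00, and Glyma.18G197600 stays between 12.9 and 15.7.

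The PSL values of the rare paralog rest on few fragments. Taking the whole locus of 5.298 kb as transcript length and every mapped read of a library as a fragment, 0.0531 FPKM in PSL-2 stands for at most about 8.23 fragments, 0.125 in PSL-1 for 23.6, and the PDL values for at most 307 and 218. The same bound for the abundant paralog was between 2430 and 7461 fragments. Sequencing was paired-end, and with every read paired the bounds for the rare paralog fall to 4.12 in PSL-2 and 11.8 in PSL-1. Among 1671 loci with a mean PSL level within a factor of 1.5 of that of Glyma.03G078300, the PSL libraries differed by a median of 0.97 on the log2 scale and 791 loci were listed at 0 in a PSL library. These are bounds from depth only, with no interval for counting error.

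The ratio between the paralogs moved with the treatment. Glyma.01G113000 was 123 and 288 times as abundant as Glyma.03G078300 in PSL-1 and PSL-2, and 23.7 and 30.3 times in PDL-1 and PDL-2. The rare paralog made up 0.808% and 0.346% of their summed FPKM in PSL and 4.05% and 3.19% in PDL, so it stayed the minor gene of the pair in all 4 libraries. Where paralogs are alike in sequence, reads can be placed on the wrong copy. How alike these are was not examined, and how many reads were misplaced was not tested.

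Which paralog shows the larger fold change depends on how low values are treated. Without any pseudocount the log2 difference was 4.20 for Glyma.03G078300 and 1.39 for Glyma.01G113000. With a pseudocount of 1 FPKM it was 1.21 for the rare and 1.34 for the abundant paralog, so that the order turned. In FPKM the abundant paralog gained more, with a mean difference of 25.5 against 1.47.

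**Figure D2:**
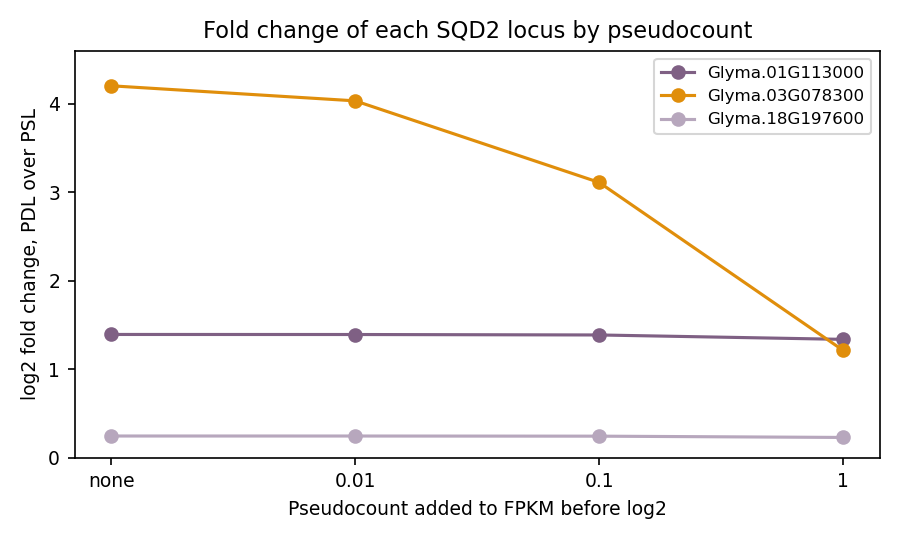
The log2 fold change of PDL over PSL (vertical axis) for each SQD2 locus against the pseudocount added to FPKM (horizontal axis). Glyma.03G078300 falls from 4.20 without one to 1.21 at 1, Glyma.01G113000 goes from 1.39 to 1.34, and the lines cross between pseudocounts of 0.1 and 1.

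Glyma.18G197600, the SQD2 locus at 47409831 to 47414887 on chromosome 18, was near Glyma.01G113000 in level in Pi-sufficient leaves but differed little between treatments. With sufficient Pi it stood at 12.9 FPKM in PSL-1 and at 13.1 in PSL-2, and without Pi at 15.1 in PDL-1 and 15.7 in PDL-2, a ratio of means of 1.19 and a log2 difference of 0.24. The groups did not overlap, and the replicates of each lay within 0.602 FPKM of each other. In PSL the order of levels was Glyma.01G113000 (15.3), Glyma.18G197600 (12.9 and 13.1) and Glyma.03G078300 (0.125 and 0.0531), with no overlap between neighbours in that order. In PDL the order was the same, and Glyma.01G113000 was 3.14 and 2.17 times as abundant as Glyma.18G197600, against 1.19 and 1.17 times in PSL.

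Summed over the 3 loci, SQD2 signal was 64.6 and 50.9 FPKM in PDL-1 and PDL-2 and 28.3 and 28.4 in PSL-1 and PSL-2. Of the mean difference of 29.4 FPKM, Glyma.01G113000 made up 86.7%, Glyma.18G197600 8.26% and Glyma.03G078300 5.02%. Glyma.01G113000 held 73.5% and 66.9% of SQD2 signal in PDL and 54.0% and 53.8% in PSL, and Glyma.18G197600 held 45.5% and 46.1% in PSL.

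**Figure D3:**
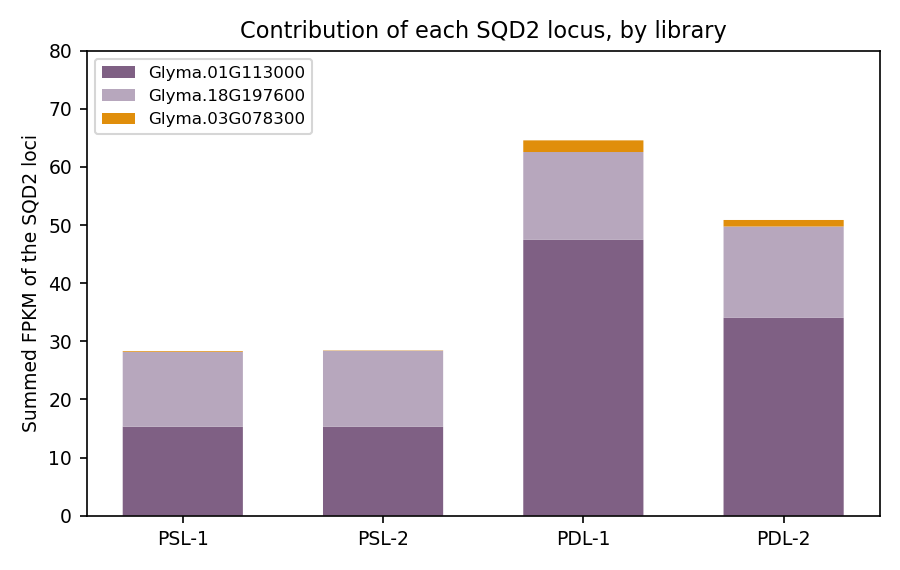
Summed FPKM of the 3 SQD2 loci by library (bars from 0), stacked by locus. The PSL bars reach 28.3 and 28.4 and the PDL bars 64.6 and 50.9, and the part of Glyma.01G113000 holds most of the gap between them. The PSL parts of Glyma.03G078300 (0.125 and 0.0531) are too thin to be read.

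All 4 genes of the steps before SQD2 had both PDL libraries above both PSL libraries as well, against the 20.2% of all loci, though none passed the thresholds, and whether their fold changes differ from those of SQD2 was not tested. They were tested with limma in a fit across all 32686 loci, with the study's thresholds of a log2 fold change of at least 1 in size and an unadjusted p of at most 0.05. These thresholds were passed by 2.03% of loci, 1.14% as higher and 0.887% as lower in PDL, and 0.0581% had an adjusted p under 0.05. Leaving out a library raised the number passed from 663 to 1283 without PDL-1, 1066 without PDL-2, 1407 without PSL-1 and 1143 without PSL-2. The SQD1 gene Glyma.19G133100 had 11.2 and 11.6 FPKM under sufficient Pi against 22.6 and 18.7 under deprivation (log2 fold change 0.85, SE 0.14, limma adjusted p = 0.470). The other SQD1 gene, Glyma.03G131100, had 11.1 and 11.4 FPKM under sufficient Pi against 24.2 and 17.1 under deprivation (log2 fold change 0.85, SE 0.20, limma adjusted p = 0.501). The SQD1 pair was nearly equal in level and in fold change. The picked SQD2 paralogs were unequal in level, and how far their fold changes differed depended on the pseudocount.

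Of the UGP3 genes, Glyma.18G025500 was the abundant copy with 7.40 and 6.82 FPKM under sufficient Pi against 14.9 and 10.2 under deprivation (log2 fold change 0.78, SE 0.22, limma adjusted p = 0.526). Glyma.11G231700, the rare copy, had 0.364 and 0.262 FPKM under sufficient Pi against 0.385 and 0.567 under deprivation (log2 fold change 0.47, SE 0.59). None of these 4 genes reached a log2 fold change of 1, so 0 of 4 passed the thresholds, while 3 of 4 had an unadjusted p of at most 0.05, as had 8.93% of all loci. Without PDL-2, Glyma.03G131100 and Glyma.18G025500 passed, with log2 fold changes of 1.10 and 1.06. The unadjusted p of Glyma.03G131100 exceeded 0.05 when either PSL library was left out, and that of Glyma.18G025500 when PDL-1 or either PSL library was. The median log2 fold change of the 4 was 0.82, and over all loci tested it was −0.01.

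Summed by step, UGP3 signal was 1.75 times, SQD1 signal 1.83 times and SQD2 signal 2.03 times as high in PDL as in PSL, as ratios of group means. The SQD2 sum includes the paralogs picked for being higher in PDL, so its ratio follows in part from that choice. The SQD2 locus that was not picked, Glyma.18G197600, had a ratio of 1.19. PDL-1 exceeded PDL-2 at each step, by a factor of 1.42 for UGP3, 1.31 for SQD1 and 1.27 for SQD2. It did so in 5 of the 7 loci of these steps, the picked paralogs included (71.4%, against 48.8% of all loci tested). The exceptions were Glyma.18G197600 and Glyma.11G231700. PSL-1 and PSL-2 were closer, with ratios of 1.10, 0.971 and 0.996.

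Markers of leaf mesophyll mostly lay higher in PDL too, though 0 passed the thresholds, against 2.03% of all loci. Of 40 loci for the small subunit of Rubisco, light-harvesting proteins, plastocyanin and carbonic anhydrase, 37 were tested. Both PDL libraries lay above both PSL libraries in 33 of the 37 (89.2%, against 20.2% of all loci), with a median log2 fold change of 0.30. The word pattern also took in loci described as gamma carbonic anhydrase 1, a name not particular to mesophyll. Of these, Glyma.01G172300 had a log2 fold change of 0.26, Glyma.04G030800 −0.05 and Glyma.11G070900 −0.12, and Glyma.04G030700 was below the minimum level. The summed level of the 40 loci was 148467 to 149026 FPKM in PDL and 114459 to 127036 in PSL, and 0 of them were at 0 in all libraries. Their log2 fold changes reached at most 0.60, which lies below those of both SQD2 paralogs, of the SQD1 genes and of Glyma.18G025500 and above those of Glyma.18G197600 and of the UGP3 gene Glyma.11G231700 (0.47). All 4 loci of a list of stomatal genes had both PDL libraries above both PSL libraries, against 20.2% of all loci. Their summed level was 32.4 to 35.8 FPKM in PDL and 21.5 to 24.6 in PSL. The MYB60 genes Glyma.03G006600 and Glyma.19G119300, which mark guard cells in Arabidopsis, did not pass, with log2 fold changes of 0.25 and 0.28. The 2 that passed as higher, against 1.14% of all loci, encode stomagen, a peptide made in Arabidopsis by mesophyll and not by guard cells. They were Glyma.08G345100, with a log2 fold change of 1.14, and Glyma.18G152800, listed at 0 in both PSL libraries. Of 11 root markers 5 were tested. Of these 1, a merged locus that starts with Glyma.08G198000, passed as lower in PDL (log2 fold change −1.005), against 0.887% of all loci. Glyma.07G127100 also had both PDL libraries below both PSL libraries but did not pass. The summed level of the 11 overlapped between the groups (317 to 365 FPKM in PDL and 296 to 367 in PSL). Most of that sum came from Glyma.05G103600, described as root hair specific 19, which ranged from 253 FPKM (PSL-2) up to 325 (PDL-1). Since this locus was abundant in leaves, the sum is not read as root signal. The part of these marker shifts in the sulfolipid values was not tested. In whole leaves more RNA per cell and more cells of a type cannot be told apart.

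Together 9 lists of sulfolipid, galactolipid, phospholipid and sulfate genes held 121 loci besides the SQD2 paralogs. Of 102 tested, 3 were higher and 1 was lower in PDL, with a median log2 fold change of 0.10. That is 3.92% past the thresholds, against 2.03% of all loci (1.14% higher and 0.887% lower). A limma adjusted p under 0.05 was found in 0. An unadjusted p of at most 0.05 was found in 12 of the 102, against 8.93% of all loci. Of the galactolipid synthases, which make the phosphorus-free galactolipids, 0 of 5 tested passed. The list, drawn by word pattern, held no locus described as DGD1, so for the second galactose it covers DGD2 only. The MGD1 genes Glyma.14G104100 and Glyma.17G221900, for the main monogalactosyldiacylglycerol synthase, had log2 fold changes of 0.03 and −0.02. The DGD2 genes Glyma.09G263300 and Glyma.18G228900, which add the second galactose, had 0.32 and −0.15. Of the MGD2 genes, of the type that responds to Pi in Arabidopsis, Glyma.13G162600 had 1.36 and 0.901 FPKM under sufficient Pi against 1.95 and 1.17 under deprivation, with overlapping groups. The other, Glyma.17G108700, was below the minimum level for the test, with 0.0925 and 0.0591 FPKM under sufficient Pi against 0.600 and 0.287 under deprivation, and like Glyma.03G078300 it was rare and its groups did not overlap.

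Of 4 tested loci for other UDP-glucose pyrophosphorylases, which supply UDP-glucose outside the plastid, 0 passed, against 2.03% of all loci. Their log2 fold changes ran from 0.02 in Glyma.06G001900 to 0.37 in a merged locus that starts with Glyma.14G210700. Glyma.02G241100 and Glyma.13G152500 lay between at 0.06 and 0.12. Another, Glyma.18G044400, had 0.227 FPKM in PDL-1 and was listed at 0 elsewhere. Of the genes that take up sulfate and reduce it to sulfite, the sulfur source of SQD1, 0 of 23 tested passed, against the same 2.03%. Their median log2 fold change was 0.28, and 8 loci had both PDL libraries above both PSL libraries (34.8%, against 20.2% of all loci). The most abundant, the APS reductase gene Glyma.15G108700, had 749 and 961 FPKM under sufficient Pi against 1166 and 1117 under deprivation (log2 fold change 0.43, SE 0.17, limma adjusted p = 0.568). The sulfate transporter gene Glyma.15G014000 fell just short of the fold change threshold (log2 fold change 0.99, SE 0.32, limma adjusted p = 0.542). Its groups did not overlap, and the study, with Cuffdiff on the reads, listed it as higher in PDL. The summed level of the list was 2823 and 3914 FPKM under sufficient Pi against 4408 and 4243 under deprivation, so the PSL libraries differed from each other by more than PSL-2 did from PDL.

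The list members past the thresholds came from 3 of the lists, and the counts below stand beside the 2.03% of all loci that passed. The phospholipase D gene Glyma.20G238000, described as phospholipase D P1 and so of the zeta type that cuts phospholipids to phosphatidic acid, had 0.338 and 0.334 FPKM under sufficient Pi against 1.49 and 1.03 under deprivation (log2 fold change 1.62, SE 0.42, limma adjusted p = 0.511). With a pseudocount of 1 its log2 fold change was 0.75 and it did not pass. It was 1 of 12 tested in the list of diacylglycerol release. The other loci described as phospholipase D P1, Glyma.09G041400 and Glyma.15G152100, were more abundant, had both PDL libraries below both PSL libraries and did not pass, with log2 fold changes of −0.28 and −0.20. Glyma.19G098500, described as senescence-related gene 3, a glycerophosphodiester phosphodiesterase in Arabidopsis, had 0.201 and 0.0640 FPKM under sufficient Pi against 2.53 and 1.24 under deprivation (log2 fold change 3.08, SE 0.63, limma adjusted p = 0.471), 1 of 4 tested in its list. Among 25 tested genes of phospholipid synthesis, the phospholipid N-methyltransferase gene Glyma.08G218900 was higher, with 0.568 and 0.749 FPKM under sufficient Pi against 4.21 and 2.49 under deprivation (log2 fold change 2.15, SE 0.36, limma adjusted p = 0.470). The other gene of that name, Glyma.07G022900, was the locus that passed as lower. It was listed at 0 in both PDL libraries and had 1.73 and 2.72 FPKM in PSL, so that no fold is given, and whether reads were split between the copies was not tested. In the lists of acyltransferases (20 tested) and of lipid import into plastids (5 tested) 0 passed, and their most abundant members, Glyma.07G146800 and Glyma.13G074600, had log2 fold changes of −0.02 and −0.02.

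**Figure D4:**
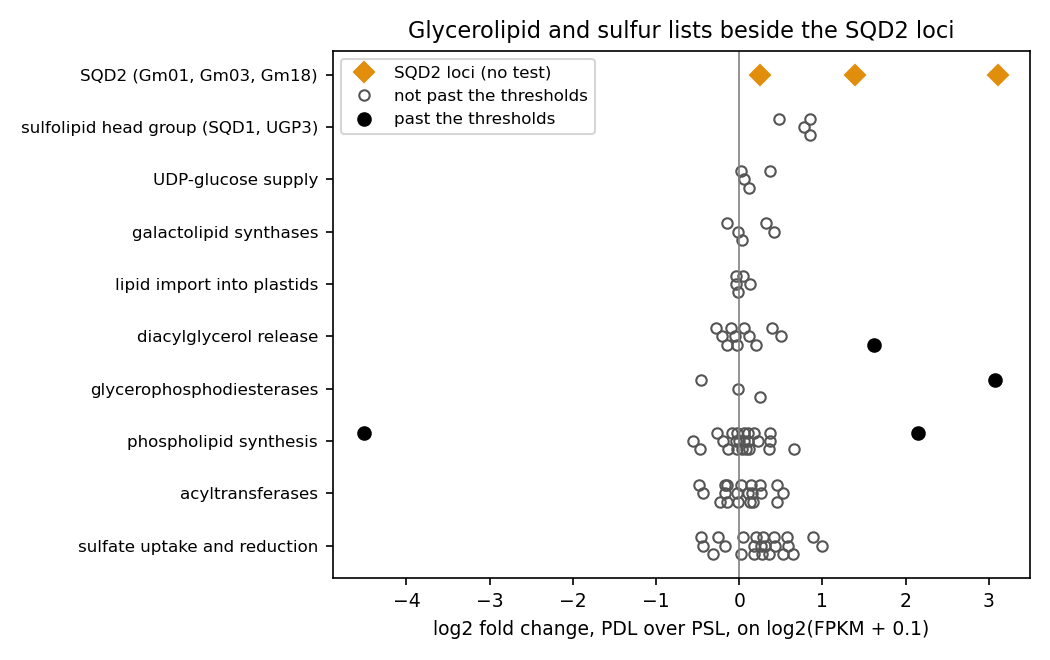
The log2 fold change of PDL over PSL on log2(FPKM + 0.1) for each tested locus of 9 lists (circles, filled where the thresholds were passed) below the 3 SQD2 loci (diamonds, not tested). The 4 sulfolipid head group genes sit between 0.47 and 0.85, the galactolipid synthases between −0.15 and 0.41, and the 4 filled circles stand in the lists of diacylglycerol release, glycerophosphodiesterases and phospholipid synthesis.

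The KEGG pathway glycerolipid metabolism, which the deposited table assigns to both paralogs, held 108 loci, of which 91 were tested. Ordered by log2 fold change, Glyma.03G078300 stood first and Glyma.01G113000 second, a place that follows from how they were picked. Of the other 89, 0 passed the thresholds in either direction, against 2.03% of all loci. An unadjusted limma p of at most 0.05 was found in 7 of the 89, against 8.93% of all loci, and the median log2 fold change was −0.02. The next were the SQD1 genes at 0.85.

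Each paralog was set against 26441 other described single-gene loci by the Euclidean distance between centred log2(FPKM + 0.1) values over the 4 libraries. With 4 libraries many genes come close to any pattern, and the likeness is a description. Nearest to Glyma.01G113000 was Glyma.17G114700, an SPX domain gene of the family that senses cellular Pi status, at a distance of 0.0877, with 7.61 and 7.35 FPKM under sufficient Pi against 22.2 and 17.2 under deprivation. An alpha/beta-hydrolase gene, Glyma.20G240600, and an inositol monophosphatase family gene, Glyma.09G011100, followed at 0.140 and 0.170. Nearest to Glyma.03G078300 was Glyma.19G098500, the glycerophosphodiester phosphodiesterase gene above, at 0.269. Glyma.16G191600 (DUF821 protein) and Glyma.07G028700 (VQ motif protein) followed at 0.409 and 0.563, and both were listed at 0 in both PSL libraries. The paralogs themselves were 1.78 apart. This placed Glyma.01G113000 at position 103 from the rare paralog and Glyma.03G078300 at position 21405 from the abundant one. The distance counts the size of a change as well as its pattern, and it depends on the pseudocount. A far place therefore does not by itself mean an unlike pattern. Both paralogs had PDL-1 above PDL-2 and both of these above the PSL libraries, the latter following from how they were picked. The PSL values of Glyma.01G113000 were nearly equal, so no order of the PSL libraries is read from them.

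The SQD2 loci lie in stretches of like gene order. Among the 10 annotated loci on each side, Glyma.01G113000 and Glyma.03G078300 shared 7 descriptions, Glyma.01G113000 and Glyma.18G197600 shared 5, and Glyma.03G078300 and Glyma.18G197600 shared 7. A laccase gene, a homeodomain-like gene, a DUF962 gene and a GPAT6 acyltransferase gene lay near all 3. No other locus of the table overlapped an SQD2 locus. Of the 5 annotated loci on each side of Glyma.03G078300, 0 of 10 tested passed the thresholds, with log2 fold changes from −0.52 to 0.45. Over all loci 2.03% passed, so little is read from a 0 among so few loci. Its nearest neighbour, the acyltransferase gene Glyma.03G078200 at a distance of 14.655 kb, had 37.8 and 31.4 FPKM under sufficient Pi against 26.6 and 30.4 under deprivation.

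Beside Glyma.01G113000, 1 of 8 tested neighbours passed, against 2.03% of all loci. This was Glyma.01G114300 (Ycf1 protein), at 0.928 and 1.05 FPKM under sufficient Pi against 2.49 and 3.98 under deprivation, at a distance of 898.925 kb, while another locus of that name and position had 18.4 and 20.4 FPKM in PSL and 9.15 and 16.2 in PDL. The next locus on one side, Glyma.01G113100 (no description), had 0 and 0.569 FPKM under sufficient Pi against 1.13 and 0.951 under deprivation and did not pass. The next on the other side, Glyma.01G112900 (HXXXD-type acyltransferase), had a log2 fold change of −0.06. Of the GPAT6 neighbours, which make precursors of cutin in Arabidopsis, Glyma.01G113200 had a log2 fold change of −0.03 and Glyma.03G078600 one of 0.45. Beside Glyma.18G197600, 0 of 7 tested passed, against the same 2.03%.

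**Figure D5:**
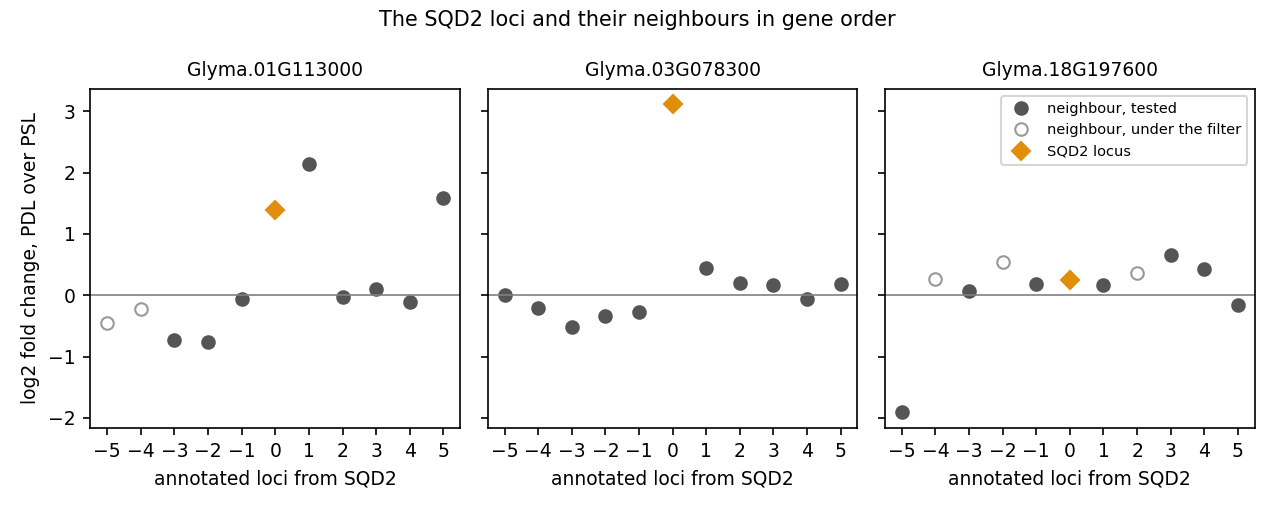
The log2 fold change of PDL over PSL (vertical axis) of each SQD2 locus (diamond) and of the 5 annotated loci on each side in gene order (circles, open where the level was below the minimum for the test). Glyma.03G078300, picked on this contrast, stands at 3.11 among neighbours between −0.52 and 0.45, and Glyma.18G197600 at 0.24 is close to most of its neighbours.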

How the data were processed

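Reads had been cleaned by the authors (FASTX-toolkit, FastQC) and placed on Gmax2.0 by TopHat with Bowtie2, and Cufflinks and Cuffdiff gave the loci and their values. Versions are not given in the sources used here. The deposited table gives the authors' FPKM per library and pooled per group. Its pooled columns and its comparison columns (fold change, statistic, p, q, call) were not used. TopHat allowed reads with several placements, which bears on paralogs that are alike in sequence. FPKM give no counts. Depth entered only as library totals of mapped reads from the study's supplement, in the bound on fragments.

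A minimum mean FPKM of 0.3 left 32686 of 39505 loci. Their log2(FPKM + 0.1) values entered a limma fit (version 3.58.1, R 4.3.3) of PDL against PSL, with the mean-variance trend and no covariate. Benjamini-Hochberg adjustment ran over all of them. Fold changes on this scale understate those of low genes. An exact permutation test of 2 against 2 cannot go below p = 0.333. Nothing beyond the libraries of 3 plants each replicates the treatment. Other work used Python 3.11.15, pandas 2.3.3 and matplotlib 3.10.9.

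The members and lists were chosen with earlier results of these data known. Lists are word patterns on descriptions. Named were the paralogs, all loci of the sulfolipid, UDP-glucose and galactolipid lists, other list members past the thresholds or else the most abundant, the 5 annotated loci on each side and the 3 nearest patterns. Glyma.18G197600, the likeness of Glyma.17G108700, the stomatal genes and the other phospholipase D P1 loci were singled out after their values were seen. A planned promoter motif search was not run, since no sequence was used here. Alternatives were pseudocounts of 1 and 0.01, none (chosen after seeing the data), filters at 1 and none, quantile and median scaling, no trend, a replicate block and leaving out each library.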

Additional observations from a re-analysis of the deposited data

How the results depend on the processing

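Both SQD2 paralogs stayed higher in PDL in every setting run. They were picked on this contrast and their groups did not overlap. No pseudocount or left-out library could therefore turn the direction, and nothing is read from its staying the same. The log2 fold change of Glyma.01G113000 lay between 1.15 and 1.63 over 13 alternatives, both ends from leaving out a PDL library. That of Glyma.03G078300, 3.11 in the report, was 1.21 with a pseudocount of 1, 4.03 with 0.01 and 4.20 with none, and 2.72 to 3.50 on leaving out each library in turn. A filter at a mean FPKM of 1 left it out. The difference of the rare from the abundant paralog, 1.72 on log2(FPKM + 0.1), was 2.64 with a pseudocount of 0.01 and 2.81 with none, and turned to −0.12 with a pseudocount of 1. By construction a pseudocount shrinks the fold change of low values most. Loci past the thresholds, 663 in the report, numbered 365 with a pseudocount of 1, 1041 with no filter and 1066 to 1407 on leaving out each library. List members past the thresholds numbered 3 to 6, with 5 to 6 on leaving out each library. Replicate numbers shared no stated origin, and same-numbered deviations correlated at −0.079 over loci. With a replicate block 662 loci and 4 list members passed. The calls of the sulfolipid head group genes and of the list members named as past the thresholds did not change. Those of other named loci were not examined singly. At the depth of these libraries the PSL level of Glyma.03G078300 is known only roughly.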
